A study of Mus musculus with 8 samples.

Results

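Genes that split a dividing cell and pack its chromosomes were followed in mouse lungs with an airway p52 transgene, with and without LPS. They are Ect2, Anln, Racgap1, Prc1, Diaph3, Top2a, Ncapg, Ncapg2, Smc2 and Smc4, 10 of the 18820 genes that could be named on the arrays. The genes were chosen by name, from measured values of these arrays: several of them were known to be higher in CCSP-p52 lungs without LPS. That difference is therefore given below as a description and was not tested.

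Each of the 8 arrays held whole-lung RNA pooled from 3 FVB mice of 8 to 12 weeks and both sexes, and there were 2 pools in each of 4 groups. The groups were CCSP-p52 mice given LPS (CCSP-p52 LPS), genotype-negative WT littermates given LPS (WT LPS), CCSP-p52 mice without LPS (CCSP-p52 dox) and WT littermates without LPS (WT dox). All mice, WT included, drank doxycycline (dox, 2 g/L in 2% sucrose) for 1 week, and LPS, a bacterial endotoxin, was put into the trachea 48 h before the lungs were taken. In CCSP-p52 mice the club cell secretory protein promoter drives the dox-dependent activator, so dox switches on FLAG-tagged p52, the processed NF-kB2 subunit, in airway epithelium, while the arrays read the whole lung. Nfkb2, the gene of the transgene, stood at a log2 expression of 10.20 and 10.33 in the CCSP-p52 dox pools, against 9.51 and 9.58 in the WT dox pools. With LPS it stood at 11.28 and 10.53 in the CCSP-p52 pools, against 10.83 and 10.56 in the WT pools, which overlapped.

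The proteins of these genes act at the end of mitosis. Racgap1 with the kinesin Kif23 forms centralspindlin, which gathers on the microtubules that Prc1 bundles between the separating chromosomes and brings the exchange factor Ect2 to the cell equator. Ect2 activates RhoA there, and RhoA switches on formins such as Diaph3, which build actin filaments, while Anln ties actin, myosin, septins and RhoA together in the contractile ring. Top2a passes DNA strands through each other, and the condensins, rings built on Smc2 and Smc4, fold the chromatin into compact chromosomes. Ncapg belongs to condensin I and Ncapg2 to condensin II. Most of these genes are transcribed in late S phase, G2 and M, and few cells of a resting adult lung are in those phases.

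Late cell cycle genes of this kind are known for a short promoter element, the CHR (cell cycle genes homology region), often near a CCAAT box. The DREAM complex holds such promoters silent in resting cells, and the MuvB core with B-Myb and FoxM1 acts through them in dividing cells. The RefSeq promoter windows (GRCm38.p6, from 250 bases before to 50 bases after the transcription start) were therefore searched on both strands. A window was at hand for 9 of the 10 genes, all but Smc4. The letters searched were TTTGAA and TTCGAA for the CHR, CCAAT for the CCAAT box, TTTCCCGC, TTTCGCGC, TTTGCCGC and TTTGGCGC for E2F, and the NF-kB consensus. The CHR windows are printed because the element lay within 50 bases of the start in 8 of the 9 genes. Each is 30 bases long and 5′ to 3′ on the gene's own strand, with the CHR letters in capitals (TTCAAA is the CHR read on the other strand).
Ect2, chr3:27153829-27153858, minus strand: gagagagcgactggattttTTTGAAtcgga
Anln, chr9:22389168-22389197, minus strand: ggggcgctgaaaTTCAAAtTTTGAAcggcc
Racgap1, chr15:99651634-99651663, minus strand: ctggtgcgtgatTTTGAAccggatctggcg
Prc1, chr7:80294434-80294463, plus strand: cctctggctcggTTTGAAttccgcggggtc
Top2a, chr11:99024195-99024224, minus strand: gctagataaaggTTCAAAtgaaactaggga
Ncapg, chr5:45669883-45669912, plus strand: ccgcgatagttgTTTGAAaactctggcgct
Ncapg2, chr12:116405406-116405435, plus strand: tacgcgggtgtgTTTGAAtctggtccgagc
Smc2, chr4:52439235-52439264, plus strand: ctcgcgccgaaaTTCAAAggaacagttccg

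With the start counted as 0, the first base of these elements lay at 39 in Ect2, 21 and 28 in Anln, which held 2 in the window shown, 5 in Racgap1, -5 in Prc1, -23 in Top2a, -30 in Ncapg, -18 in Ncapg2 and 26 in Smc2. A CHR within 50 bases of the start was present in 4.46% of the 14749 promoters of genes measured on the arrays, and a CHR anywhere in the window in 16.8%. Diaph3 had no CHR letters in its window. A CCAAT box was present in 7 of the 9 windows, against 38.3% of the 14749. E2F letters were present in 2 of the 9, Ncapg and Ncapg2, against 3.15%, and the NF-kB consensus in 0 of the 9, against 9.19%. In these 9 windows no match of a motif shared a base with a match of another. The matches are letters in a window and not measured binding.

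The 130 bases before the start are shown for Top2a, which had the largest LPS difference of the 10, for Ect2, which had the largest p52 difference without LPS, and for Diaph3, the gene without a CHR. Capitals mark CHR letters and CCAAT boxes (ATTGG on the other strand).
Top2a, chr11:99024190-99024319, minus strand: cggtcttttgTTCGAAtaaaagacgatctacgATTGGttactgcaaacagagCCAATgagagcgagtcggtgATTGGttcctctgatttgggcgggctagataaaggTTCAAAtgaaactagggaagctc
Ect2, chr3:27153879-27154008, minus strand: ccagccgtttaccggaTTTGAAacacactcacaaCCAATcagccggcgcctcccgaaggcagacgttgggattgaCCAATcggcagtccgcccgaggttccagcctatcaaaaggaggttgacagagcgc
Diaph3, chr14:87141225-87141354, minus strand: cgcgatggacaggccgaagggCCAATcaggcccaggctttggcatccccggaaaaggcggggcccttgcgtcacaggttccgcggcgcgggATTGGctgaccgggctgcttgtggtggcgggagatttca
Top2a held 2 CHR elements and 3 CCAAT boxes in this stretch, Ect2 1 CHR and 2 CCAAT boxes, and Diaph3 2 CCAAT boxes.

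**Figure D1:**
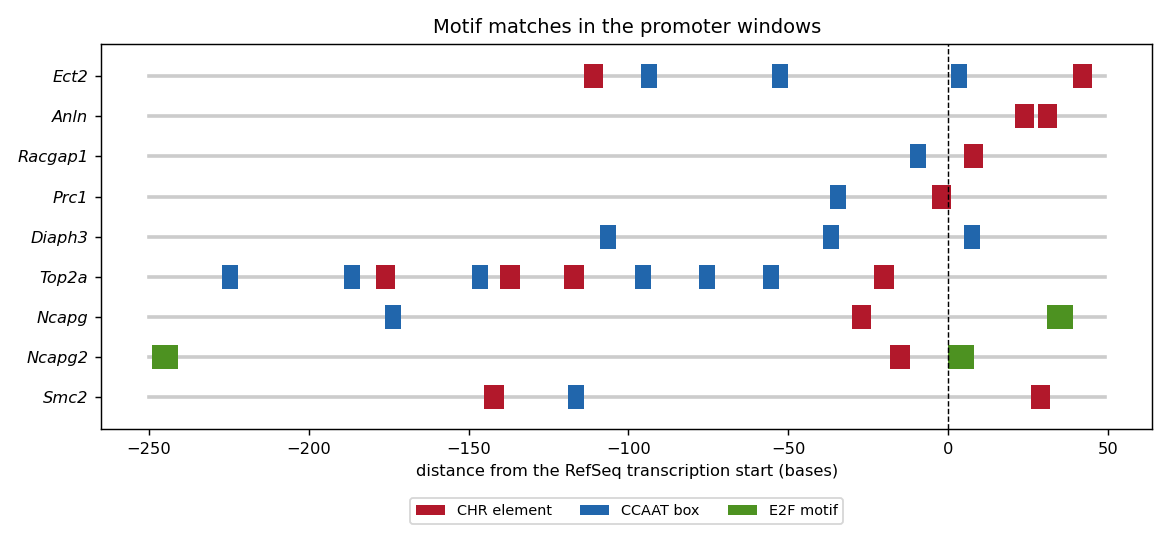
Motif matches in the RefSeq promoter windows of 9 genes (x axis, distance in bases from the transcription start; 1 row per gene; grey line, the window of 300 bases; red, CHR element; blue, CCAAT box; green, E2F motif). A red mark lies within 50 bases of the start in every row but that of Diaph3.

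The expression values are log2 levels after RMA, so a difference of 1 is a doubling, and each gene is compared only with itself. The arrays had medians of 7.48 to 7.54. Over all probe sets the pools of a group correlated at 0.981 in CCSP-p52 LPS, 0.987 in WT LPS, 0.993 in CCSP-p52 dox and 0.994 in WT dox. Markers of alveolar type II cells averaged 11.4 to 12.2 on every array, and those of club cells 9.72 to 11.8. One library stood apart: WT LPS pool 2 held markers of striated muscle (mean of 5 of 6 listed genes, 10.5, against at most 8.62 on the other arrays) and of squamous epithelium (4 of 4 genes, 11.3, against at most 6.61). Medians of the LPS results are given with and without it, as are several of the counts.

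Among the genes that place and drive the furrow, Ect2 stood at 8.85 and 8.22 in the CCSP-p52 LPS pools and 8.59 and 8.25 in the WT LPS pools. It stood at 8.33 and 8.37 in the CCSP-p52 dox pools, against 7.20 and 7.25 in the WT dox pools. The WT dox pools were thus alone at the bottom, and CCSP-p52 lungs without LPS lay inside the range of the LPS lungs. Racgap1, the GTPase-activating partner of Kif23 in centralspindlin, stood at 8.91 and 8.48 in CCSP-p52 LPS, 8.84 and 8.53 in WT LPS, 7.91 and 7.87 in CCSP-p52 dox, and 7.52 and 7.19 in WT dox. Prc1, the microtubule bundler, stood at 8.44 and 7.59 in CCSP-p52 LPS, 8.25 and 8.03 in WT LPS, 7.28 and 7.43 in CCSP-p52 dox, and 6.24 and 6.29 in WT dox. Both genes were in steps, with the LPS lungs of either genotype on top, CCSP-p52 lungs on dox alone in the middle and WT lungs on dox alone at the bottom.

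The genes of the ring proteins had the same steps. Anln stood at 8.39 and 8.00 in CCSP-p52 LPS, 8.39 and 8.22 in WT LPS, 7.80 and 7.70 in CCSP-p52 dox, and 7.19 and 6.99 in WT dox. Diaph3, the formin, stood at 7.48 and 7.15 in CCSP-p52 LPS, 7.68 and 7.42 in WT LPS, 6.98 and 7.10 in CCSP-p52 dox, and 6.65 and 6.55 in WT dox. The lowest LPS pool of Diaph3 was just above the highest pool on dox alone, so its groups came close without overlapping.

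On the chromosome side, Top2a stood at 9.12 and 8.39 in CCSP-p52 LPS, 9.06 and 8.94 in WT LPS, 7.79 and 7.72 in CCSP-p52 dox, and 6.97 and 6.79 in WT dox. Smc2, the condensin ATPase, stood at 8.49 and 7.90 in CCSP-p52 LPS, 8.28 and 7.91 in WT LPS, 7.65 and 7.60 in CCSP-p52 dox, and 7.30 and 7.25 in WT dox. Both had the LPS pools apart from all pools on dox alone. Ncapg of condensin I stood at 7.33 and 6.68 in CCSP-p52 LPS, 7.34 and 6.93 in WT LPS, 6.36 and 6.47 in CCSP-p52 dox, and 5.85 and 5.87 in WT dox. Ncapg2 of condensin II stood at 8.00 and 7.07 in CCSP-p52 LPS, 7.68 and 7.20 in WT LPS, 6.77 and 6.75 in CCSP-p52 dox, and 6.70 and 6.53 in WT dox. For Ncapg2 the groups on dox alone lay close together. Smc4, the ATPase partner of Smc2, was nearly level: 9.23 and 9.04 in CCSP-p52 LPS, 9.15 and 9.06 in WT LPS, 9.36 and 9.24 in CCSP-p52 dox, and 9.17 and 9.17 in WT dox. Its group means ran CCSP-p52 dox, WT dox, CCSP-p52 LPS and WT LPS from high to low, an order none of the other 9 genes had.

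**Figure D2:**
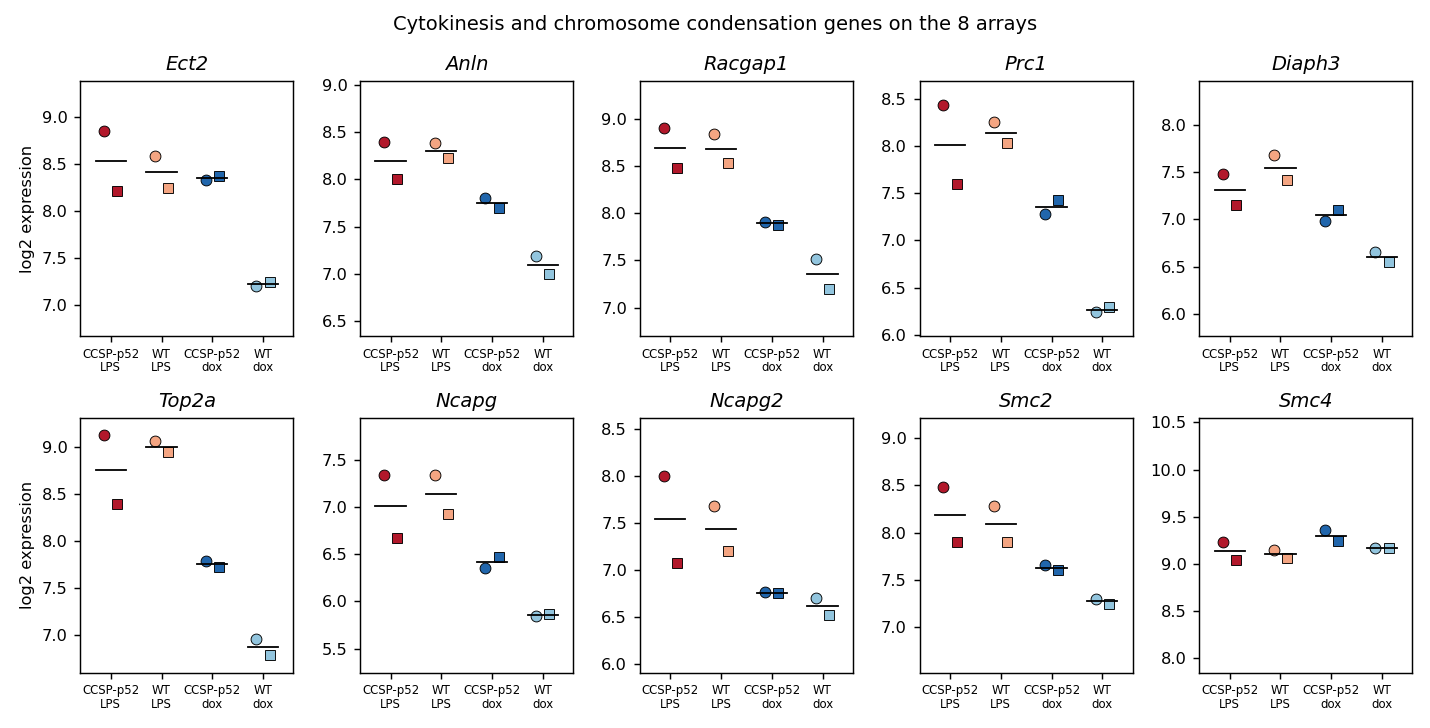
Log2 expression of the 10 genes on the 8 arrays (y axis, log2 level, each panel with its own range of the same height; circle, pool 1; square, pool 2; black line, mean of the 2 pools). WT dox pools are lowest in 9 panels, Smc4 is nearly level, and the square of CCSP-p52 LPS is the lowest LPS point in all 10.

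LPS against no LPS was compared over both genotypes in an additive limma model with p52 and LPS as factors. This contrast has no component in common with the p52 difference in view when the genes were chosen. Of the 10 genes, 9 were higher with LPS at a Benjamini-Hochberg adjusted p under 0.05, while 13.5% of all genes tested were called higher and 20.8% lower. The median logFC of the 10 was 0.81, and that of all genes was 0.0046. Top2a had a logFC of 1.56 (SE 0.24, adjusted p = 0.00226), a 2.95-fold difference, and Prc1 1.27 (SE 0.27, adjusted p = 0.00816), 2.41-fold. Racgap1 had a logFC of 1.07 (SE 0.15, adjusted p = 0.00162), 2.09-fold. The condensin genes Ncapg, Ncapg2 and Smc2 had logFCs of 0.94, 0.80 and 0.69 (SE 0.19, 0.19 and 0.14) with adjusted p of 0.00698, 0.0146 and 0.00726. The ring genes Anln and Diaph3 had 0.83 and 0.61 (SE 0.17 and 0.15), with adjusted p of 0.00656 and 0.0164. Ect2 passed narrowly, with a logFC of 0.69 (SE 0.22, adjusted p = 0.0459). Smc4 had a logFC of -0.11 (SE 0.07, adjusted p = 0.278) and did not pass.

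All 4 LPS arrays lay above all 4 arrays on dox alone for 8 of the 10 genes, against 15.1% of all genes. The exceptions were Ect2, where the CCSP-p52 dox pools overlapped the LPS range, and Smc4. Leaving out WT LPS pool 2 left 8 genes called, with a median logFC of 0.84. Without it Ect2 had an adjusted p of 0.101. The Ect2 call was also lost without any other array except CCSP-p52 LPS pool 2, at adjusted p of 0.0523 to 0.131. The Diaph3 call was lost without WT dox pool 1 (adjusted p = 0.056) or WT dox pool 2 (adjusted p = 0.0553).

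Markers of several cell types also moved with LPS. Neutrophil markers, 7 of 8 listed genes, averaged 10.9 to 11.4 in CCSP-p52 LPS and 10.8 to 11.4 in WT LPS, against 7.02 to 7.18 in CCSP-p52 dox and 6.91 to 7.43 in WT dox. Monocyte and macrophage markers, 8 of 9 genes, averaged 9.20 to 9.68 in CCSP-p52 LPS and 9.47 to 9.76 in WT LPS, against 7.74 to 8.14 in CCSP-p52 dox and 7.53 to 8.09 in WT dox. Mrc1 and Siglecf of that list did not rise in WT lungs. Mrc1 stood at 8.56 and 8.68 in WT LPS against 9.24 and 8.78 in WT dox. Siglecf stood at 7.62 and 7.35 in WT LPS against 7.53 and 7.40 in WT dox. In CCSP-p52 lungs Mrc1 stood at 8.06 and 9.69 with LPS against 9.17 and 8.89 on dox alone. Siglecf there stood at 7.33 and 7.49 with LPS against 7.49 and 7.51. Markers of immature granulocytes, 6 of 6 genes, averaged 7.93 in both CCSP-p52 LPS pools and 7.77 to 7.87 in WT LPS, against 6.49 to 6.71 in CCSP-p52 dox and 6.70 to 6.87 in WT dox. That gap lay mostly in Ngp and Ltf, though Ltf stood at 8.60 in WT LPS pool 1 against 8.61 in WT dox pool 1. Elane, the neutrophil elastase gene, stood at 6.58 and 6.79 in CCSP-p52 LPS and 6.64 and 6.77 in WT LPS. It was at most 6.51 in CCSP-p52 dox and 6.53 in WT dox. Camp stood at 6.94 to 7.11 with LPS, against at most 6.60 on dox alone. Mpo and Prtn3 overlapped. Mpo stood at 6.51 in CCSP-p52 LPS pool 1 against 6.67 in CCSP-p52 dox pool 2. Prtn3 stood at 6.84 in WT LPS pool 1 against 6.93 in WT dox pool 1. Other lists were lower with LPS. Endothelial markers, 4 of 4 genes, averaged 11.7 to 12.5 in CCSP-p52 LPS and 11.9 to 12.1 in WT LPS, against 12.7 in both CCSP-p52 dox pools and 12.8 in both WT dox pools. Alveolar type I markers, 4 of 4 genes, averaged 11.3 to 11.8 in CCSP-p52 LPS and 11.5 in both WT LPS pools, against 12.0 in CCSP-p52 dox and 11.9 to 12.0 in WT dox. Pdpn of that list went the other way. It stood at 11.92 and 12.07 in CCSP-p52 LPS and 11.88 and 11.93 in WT LPS, against at most 11.83 on dox alone. B cell markers, 4 of 5 genes, averaged 7.57 to 8.32 in CCSP-p52 LPS and 7.87 to 8.47 in WT LPS, against 8.30 to 8.84 in CCSP-p52 dox and 8.59 to 9.38 in WT dox. The part of these cells in the LPS result was not tested. In RNA of whole lungs, more dividing cells and more RNA of these genes per cell cannot be told apart.

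CCSP-p52 and WT lungs that had both received LPS were compared in the 4-group limma model, over mice other than those of the difference that chose the genes. None of the 10 genes passed. Their logFC, CCSP-p52 LPS minus WT LPS, ran between -0.24 (Top2a, SE 0.22) and 0.12 (Ect2, SE 0.21), with a median of -0.05 and adjusted p of 0.756 to 0.991. The logFC was above 0 in 5 (Ect2, Racgap1, Ncapg2, Smc2 and Smc4) and below 0 in 5 (Anln, Prc1, Diaph3, Top2a and Ncapg), and the pools of the groups overlapped in all 10. Over all genes limma called 0% higher and 0% lower at an adjusted p under 0.05, with 1293 genes at an unadjusted p under 0.05. At the study's cut-off, a logFC of at least 0.41 with an unadjusted p of at most 0.05, 0.972% of all genes were higher and 1.09% lower, and none of the 10 was among them.

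The CCSP-p52 LPS pools lay apart from each other. Pool 2 was the lowest of the 4 LPS arrays in all 10 genes, as it was for 32.6% of all genes, and CCSP-p52 LPS pool 1 was the highest in 8. The exceptions, Diaph3 and Ncapg, were highest in WT LPS pool 1. Between pools numbered 1, 8 of the 10 genes were higher in CCSP-p52 LPS than in WT LPS, and between pools numbered 2, none was. The shares of all genes with pool 1 highest, or with these orders between same-numbered pools, were not counted. The median logFC was 0.21 without CCSP-p52 LPS pool 2, -0.33 without CCSP-p52 LPS pool 1, 0.07 without WT LPS pool 1 and -0.17 without WT LPS pool 2. No gene of the 10 passed in any of these, the lowest adjusted p being 0.0648 for Top2a. The endothelial markers given above also lay further apart between the CCSP-p52 LPS pools than between the WT LPS pools. So did alveolar type II markers, at 11.4 and 12.1 against 11.7 and 11.6. Alveolar type I, monocyte and macrophage, T cell, B cell and erythroid markers did so too. Neutrophil, immature granulocyte, NK cell, club cell, ciliated cell, striated muscle and squamous epithelium markers went the other way. The part of these markers was not tested.

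Without LPS, in the comparison in view when the genes were chosen, both CCSP-p52 dox pools lay above both WT dox pools for all 10 genes, where 16.5% of all genes did. The logFC, CCSP-p52 dox minus WT dox, was 1.12 for Ect2 (SE 0.21), 1.09 for Prc1 (SE 0.25), 0.87 for Top2a (SE 0.22) and 0.66 for Anln (SE 0.15). Ect2 and Prc1 were thus 2.18-fold and 2.12-fold higher, and Top2a 1.83-fold. Ncapg had 0.55, Racgap1 0.53 and Diaph3 0.44, the smallest of the 7 genes at the study's cut-off. Smc2 at 0.35, Ncapg2 at 0.15 and Smc4 at 0.13 were outside it. At that cut-off 0.569% of all genes were higher and 0.165% lower. The median logFC of the 10 was 0.54, and that of all genes -0.0027. Leaving out either pool numbered 2 on dox alone, that of CCSP-p52 or that of WT mice, left 4 of the 10 at the cut-off. Club cell markers, 4 of 4 genes, averaged 10.8 to 10.9 in CCSP-p52 dox against 11.6 to 11.8 in WT dox. Most of that gap was Bpifa1, at 6.86 and 6.12 in CCSP-p52 dox against 10.30 and 8.54 in WT dox. Scgb3a2 was also lower in CCSP-p52 dox, at 9.35 and 9.43 against 9.52 and 10.02. So was Cyp2f2, at 13.91 and 13.92 against 13.95 and 14.07. Scgb1a1, the club cell secretory protein gene, overlapped at 13.66 and 13.64 against 13.63 and 13.77. The part of these markers was not tested.

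The additive p52 coefficient, which averages over lungs with and without LPS, had a median of 0.25 in the 10 genes, and only Ect2, at 0.62 (SE 0.22), was at the cut-off. Over all genes 0.228% were higher and 0.0425% lower in this fit. The study's listed logFC for Diaph3 and Nfkb2, 0.441 and 0.720, equal the differences without LPS found here. The additive coefficients of these genes were 0.104 and 0.467. LPS minus dox alone had a median logFC of 0.58 within CCSP-p52 lungs and 1.20 within WT lungs. Ect2 had 0.18 in CCSP-p52 lungs (SE 0.21), against 1.19 in WT lungs, and Top2a 1.00 (SE 0.22), against 2.12. Ncapg2 was nearest to equal, with 0.78 in CCSP-p52 lungs (SE 0.30) and 0.82 in WT lungs. The p52 difference with LPS was below that without LPS in all 10 genes, by a median of -0.68, and between -1.21 for Prc1 and -0.05 for Ncapg2. Over all genes the median of this gap was 0.0062, and 51.2% of genes had a gap above 0. Without WT LPS pool 2 the median within WT lungs was 1.33, with 1.36 for Ect2, 2.18 for Top2a and 1.06 for Ncapg2. The median gap between the p52 differences was then -0.82, between -1.33 for Prc1 and -0.14 for Smc4. These comparisons share pools with the one in view when the genes were chosen and are given as values without a test.

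**Figure D3:**
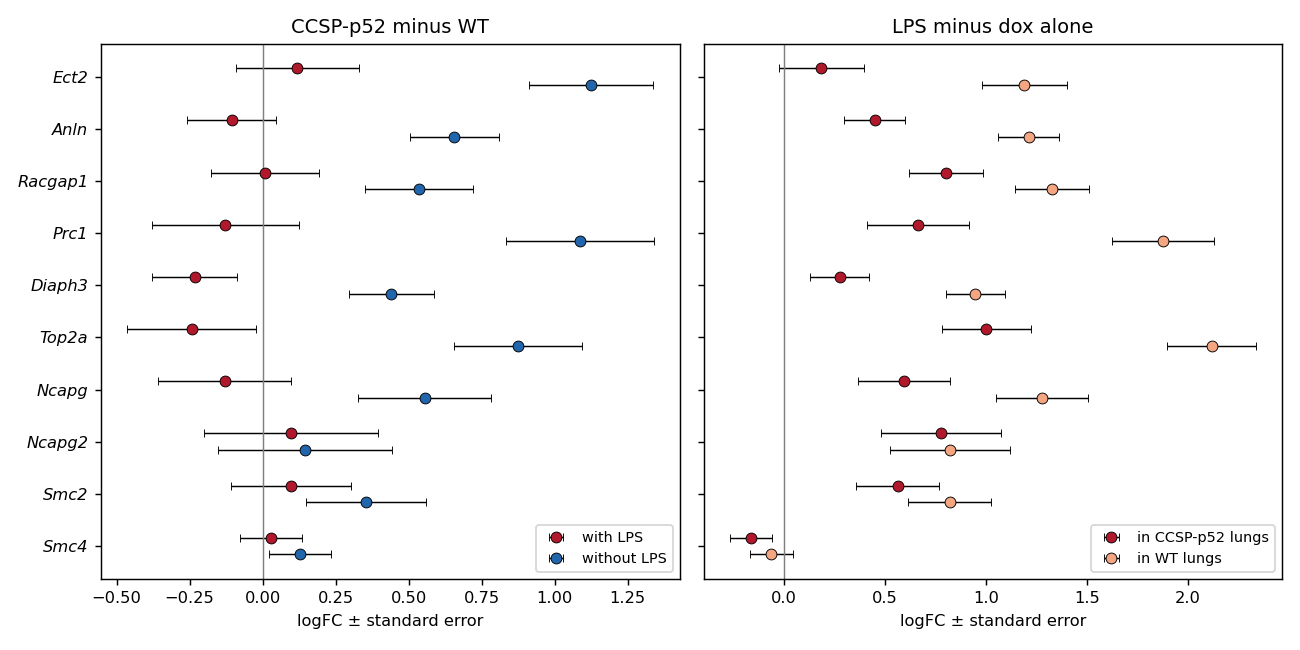
Left, logFC of CCSP-p52 minus WT with LPS (red) and without LPS (blue); right, logFC of LPS minus dox alone in CCSP-p52 lungs (red) and in WT lungs (orange), with standard errors of the 4-group limma model (2 pools a group). With LPS the p52 differences sit between -0.24 and 0.12, and without LPS between 0.13 and 1.12.

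Across the 8 arrays 9 of the genes varied together and Smc4 did not. Over the 36 pairs without Smc4, Pearson's r ran between 0.76 and 0.99 with a median of 0.95, and over its 9 pairs between -0.26 and 0.15. These values describe 8 arrays in 4 groups that the pairs share. Ncapg was nearest to the mean of the other 9 genes (0.99), and Ncapg2 (0.90) and Ect2 (0.90) were the farthest after Smc4. The 6 genes outside the set whose pattern was most like its mean were Kif11 (0.997), Sgo2a, Knstrn, H2bc14, Tnip3 and Kif2c (0.993 to 0.994). Kif11 and Kif2c are mitotic kinesins, Sgo2a guards centromeric cohesion, Knstrn is a kinetochore protein and H2bc14 a histone. Tnip3 is an inhibitor of NF-kB signalling rather than a division gene. Tnip3 stood at 10.83 and 9.39 in CCSP-p52 LPS, 10.48 and 10.03 in WT LPS, 8.81 and 8.58 in CCSP-p52 dox, and 6.79 and 6.37 in WT dox.

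Other genes of the same steps were read from lists. Of 13 central spindle and midbody genes, 12 were measured, and 9 of these rose with LPS and none fell, with a median logFC of 0.67, while 13.5% of all genes were called higher and 20.8% lower. Without WT LPS pool 2, 8 of the 12 were called, with a median of 0.67. Plk1, the kinase that docks on Prc1, had an LPS logFC of 1.40 (adjusted p = 0.000746). Aurkb, the kinase of the chromosomal passenger complex, had 1.24 (adjusted p = 0.00202), and Shcbp1, a midbody partner of centralspindlin, 0.92 (adjusted p = 0.00113). Kif23 stood at 8.51 and 8.06 in CCSP-p52 LPS, 8.58 and 8.28 in WT LPS, 8.07 and 8.01 in CCSP-p52 dox, and 7.33 and 7.43 in WT dox, so that, as for Ect2, CCSP-p52 lungs on dox alone reached into the LPS range. Its LPS logFC was 0.65 (SE 0.18, adjusted p = 0.025), and without WT LPS pool 2 the adjusted p was 0.0612. The 12 genes, too, were listed with earlier results of these data known. Without LPS, all 12 were above 0 in CCSP-p52 dox minus WT dox, against 48.8% of all genes. Their median was 0.46, and 5 were at the study's cut-off, which 0.569% of all genes reached. Kif23 and Cep55, which brings the abscission machinery to the midbody, had the largest, at 0.66 and 0.65. With LPS none of the 12 passed, with a median of -0.06.

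Parts of the ring and of abscission are also used by non-dividing cells. Of 14 contractile ring genes 13 were measured, and with LPS 3 were called higher and 3 lower (23.1% each), near the 13.5% and 20.8% of all genes, with a median logFC of -0.11. Without WT LPS pool 2 these counts were 3 and 2, with a median of -0.12. Pfn1 and Cfl1, actin monomer and filament regulators, had 0.56 (adjusted p = 0.00273) and 0.38 (adjusted p = 0.00672). Myh10, a non-muscle myosin heavy chain, had -1.40 (adjusted p = 0.000353) and Septin11 -0.35 (adjusted p = 0.00754). Of the relatives of Diaph3, Diaph2 had 0.26 (adjusted p = 0.0387) and Diaph1 0.11 (adjusted p = 0.315), against 0.61 for Diaph3. Of 10 abscission genes 1 rose, Chmp4b of ESCRT-III at 0.47 (adjusted p = 0.01), and none fell, also without WT LPS pool 2. No gene of these lists was at the cut-off in CCSP-p52 dox minus WT dox, where their medians were -0.03 and -0.02.

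The other chromosome genes include the remaining condensin subunits, cohesin and their relatives. Ncapd2 and Ncaph, the remaining condensin I subunits, rose with LPS, at 0.60 (adjusted p = 0.0066) and 0.30 (adjusted p = 0.0359). Of the condensin II subunits, Ncapd3 fell by 0.24 (adjusted p = 0.028, and 0.0725 without WT LPS pool 2) and Ncaph2 had 0.04 (adjusted p = 0.673), while Ncapg2 rose as given above. Of 12 cohesin and other SMC genes, listed with the Top2a paralog Top2b, 7 fell with LPS, none rose, and the median was -0.27, where 20.8% of all genes were called lower. Without WT LPS pool 2, 6 fell, with a median of -0.25. Smc3, a core cohesin ATPase, had -0.47 (adjusted p = 0.00197) and Rad21, the cohesin clasp, -0.35 (adjusted p = 0.00431), while Smc1a at -0.18 (adjusted p = 0.066), Smc5 at -0.09 and Smc6 at -0.11 did not pass. Top2b, the paralog that non-dividing cells use, fell by 0.45 (adjusted p = 0.0105), against 1.56 higher for Top2a. Without LPS the 4 condensin subunits had a median of 0.16 in CCSP-p52 dox minus WT dox and the 12 cohesin and SMC genes -0.06. None of either list was at the cut-off.

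**Figure D4:**
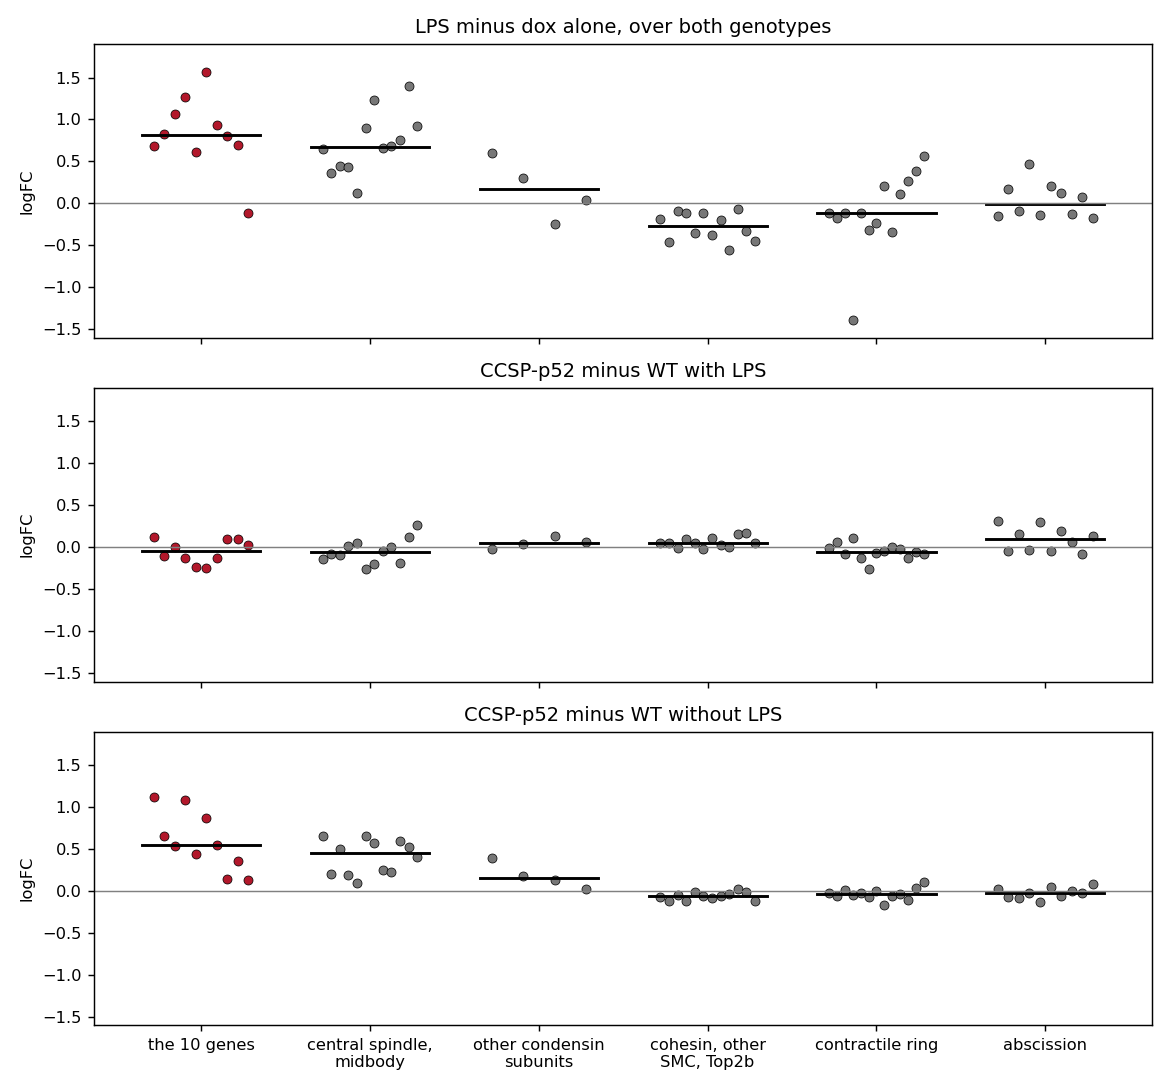
LogFC of the genes of 6 lists in 3 comparisons (each point a gene; red, the 10 genes; grey, other lists; bar, median; y axis, logFC). For LPS minus dox alone the median of the 10 genes was 0.81, that of the central spindle and midbody list 0.67 and that of the cohesin list -0.27, and for CCSP-p52 minus WT with LPS every list's median was between -0.06 and 0.09.

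Proliferation markers outside the 10 genes, 7 of 10 measured, averaged 8.59 to 9.23 in CCSP-p52 LPS and 8.85 to 9.22 in WT LPS, against 8.24 to 8.26 in CCSP-p52 dox and 7.67 to 7.88 in WT dox. With LPS 6 of the 7 rose, with a median logFC of 1.07, where 13.5% of all genes were called higher. Without WT LPS pool 2 the median was 1.16. The mean level of the 10 genes had the same ranking of groups, with 7.85 to 8.42 in CCSP-p52 LPS, 8.05 to 8.33 in WT LPS, 7.62 to 7.63 in CCSP-p52 dox and 6.99 to 7.08 in WT dox. The pools of the 2 LPS groups overlapped on both means, while those of the groups on dox alone did not.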

How the data were processed

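Per the labels and the methods, the authors hybridised pooled lung RNA to Affymetrix Mouse Gene 1.0 ST arrays and deposited log2 values made by RMA in oligo. Their processing notes name limma 3.20.8. RMA equalises the arrays' distributions, which hides a change in total RNA. Here, 21218 of 35556 probe sets with exactly 1 gene symbol in the platform's probe table were fitted with R 4.3.3 and limma 3.58.1 (lmFit, eBayes), and each gene was read from its probe set with the highest mean over the 8 arrays (18820 genes). Adjusted p-values are Benjamini-Hochberg over the 21218. The probe table's array version was not settled.

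The members and lists were chosen with earlier results of these data known. Named genes were the 10 members, their partners and paralogs, per list up to 4 genes by LPS p and 2 by p52 difference, and the 6 most like the members. The Prc1 and Top2a probe sets not used were dim (at most 5.25). Pool 1 minus pool 2 correlated between conditions at 0.14 to 0.35 over 6 pairs, but no source says what the number marks. The main models have no pool block, and a fit with pool number as a block was an alternative. List results without WT LPS pool 2 were added after seeing the data. P-values measure the spread between pools, not between single mice. In the additive model the spread also takes in any difference of the LPS effect between the genotypes. Steps were tested on simulated data.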

Additional observations from a re-analysis of the deposited data

How the results depend on the processing

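Other settings (probe sets tested or averaged, variance moderation, array weights, centring, quantile normalization, pool block, other models) and the omission of each array in turn were run. The LPS median of the 10 genes stayed between 0.72 and 0.92 in the other settings and between 0.71 and 0.99 with an array left out, and 7 to 9 genes were called with an array left out. Among probe sets brighter than the median 5 were called, because Prc1, Diaph3, Ncapg and Ncapg2 are not among them. The count without LPS given below for the brighter probe sets also lacks these genes. Prc1, Diaph3 and Ncapg had been at the cut-off in the main fit. With all probe sets, named or not, Ect2 had an adjusted p of 0.0674 for LPS (range over the other settings 0.00393 to 0.0674), and more sets were then tested. The median of CCSP-p52 LPS minus WT LPS changed sign to 0.019 among the brighter probe sets and to 0.0071 with all probe sets of a gene averaged, and was -0.33 to 0.21 with an array left out. No member passed in any of these. Averaging their probe sets brought the LPS logFC of Top2a to 0.63 and of Prc1 to 0.74, both still called, and their difference without LPS to 0.18 and 0.49. Without LPS 4 members were at the cut-off among the brighter probe sets and 4 to 7 with an array left out. The additive p52 fit had 5 members at the cut-off with array weights, 2 with the 4-group average and 0 to 5 with an array left out, against 1. The cause was not tested. Array weights were equal within a group.

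Over all genes, CCSP-p52 LPS minus WT LPS gave 0 calls, but 180 higher and 65 lower without CCSP-p52 LPS pool 1, and 2 higher and 128 lower without WT LPS pool 1. At the study's cut-off without LPS, 107 genes were higher and 31 lower, with 47 to 150 and 14 to 79 in other settings and 65 to 144 and 38 to 65 with an array left out. The additive p52 fit had 43 and 8, with 17 to 102 and 3 to 48 in other settings and 39 to 115 and 16 to 112 with an array left out. With pool number as a replicate block, 9 members were called for LPS, 0 for CCSP-p52 LPS minus WT LPS, and the additive fit had 13 genes lower at the cut-off in place of 8. The block changed no call of a member. With 2 pools a group, differences as small as those with LPS could not be resolved.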
